A study of Mus musculus with 2 samples.

Results

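The probe sets described here read histone genes, both the replication-dependent genes of the histone clusters and the genes of histone variants, in the developing mouse limb, with and without Bhlha9. Members were chosen by gene symbol: every probe set annotated to a single histone or histone variant gene was taken, which gave 32 of 45037 probe sets and 22 of 18193 genes. The 10 replication-dependent genes held 14 probe sets and the 12 variant genes held 18. The group was taken up with the knockout to wild-type ratios of some members already known, so all ratios are given as a description. Macroh2a3 is annotated by RefSeq as a transcribed pseudogene, and the other 21 genes as protein-coding.

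RNA came from whole limb buds at E10.5, in the C57BL/6 strain, and each group was 1 Affymetrix array. The wild-type group carried no mutation by its label, and the other was a Bhlha9 knockout, Bhlha9 being a basic helix-loop-helix transcription factor gene of the limb bud. The knockout allele, the number of embryos behind each RNA and the mixture of fore and hind limb buds were not stated. With 1 array per genotype nothing was replicated or tested, and every difference below is one between 2 arrays. The single Bhlha9 probe set read 7.87 in the wild-type and 1.70 in the knockout, both too dim to check the labels.

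Histones package DNA into nucleosomes. The replication-dependent genes lie in clusters and supply the bulk of H1, H2A, H2B, H3 and H4 during DNA synthesis, and their mRNAs end in a stem-loop in place of a poly(A) tail. Variant histones such as H3.3, H2A.Z, macroH2A and the centromeric CENP-A are made from polyadenylated mRNAs and are placed by their own chaperones, while the H2A.X mRNA can end either way. The labelling kit copied RNA from its 3′ poly(A) tail, so signals of replication-dependent genes report how much of such mRNA carried a tail and are no measure of its total amount. A limb bud at this stage is a rapidly dividing tissue.

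Signals are linear intensities, given as wild-type and then knockout. A signal under the 40th percentile of its array, 41.2 for wild-type and 41.8 for knockout, was treated as not detected and raised to that floor, so that a ratio against it is a bound. Ratios are on the log2 scale, with wild-type subtracted from knockout. Disagreement between probe sets of the same gene, over 5440 genes, corresponded to an SD of 0.28 for 1 log2 ratio. That is a technical error only.

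In these arrays 22 of the 32 member probe sets were above the floor on both arrays, 3 on the wild-type array alone and 7 on neither. Of the 25 that passed it on either array, 2 were lower in the knockout by 2-fold or more and 0 were higher by as much. The same shares over all 29201 probe sets that passed were 4.51% lower and 3.22% higher. Both lower members, H3f3b and Macroh2a3, were known before the group was chosen, and nothing is read from that share. Among the 22 members measured on both arrays, 16 ratios were negative and 6 positive, and the positive ones belonged to H2A.Z and to the H2B gene H2bc21. Over all 24843 probe sets measured on both arrays, 13583 ratios were negative and 11260 positive.

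**Figure D1:**
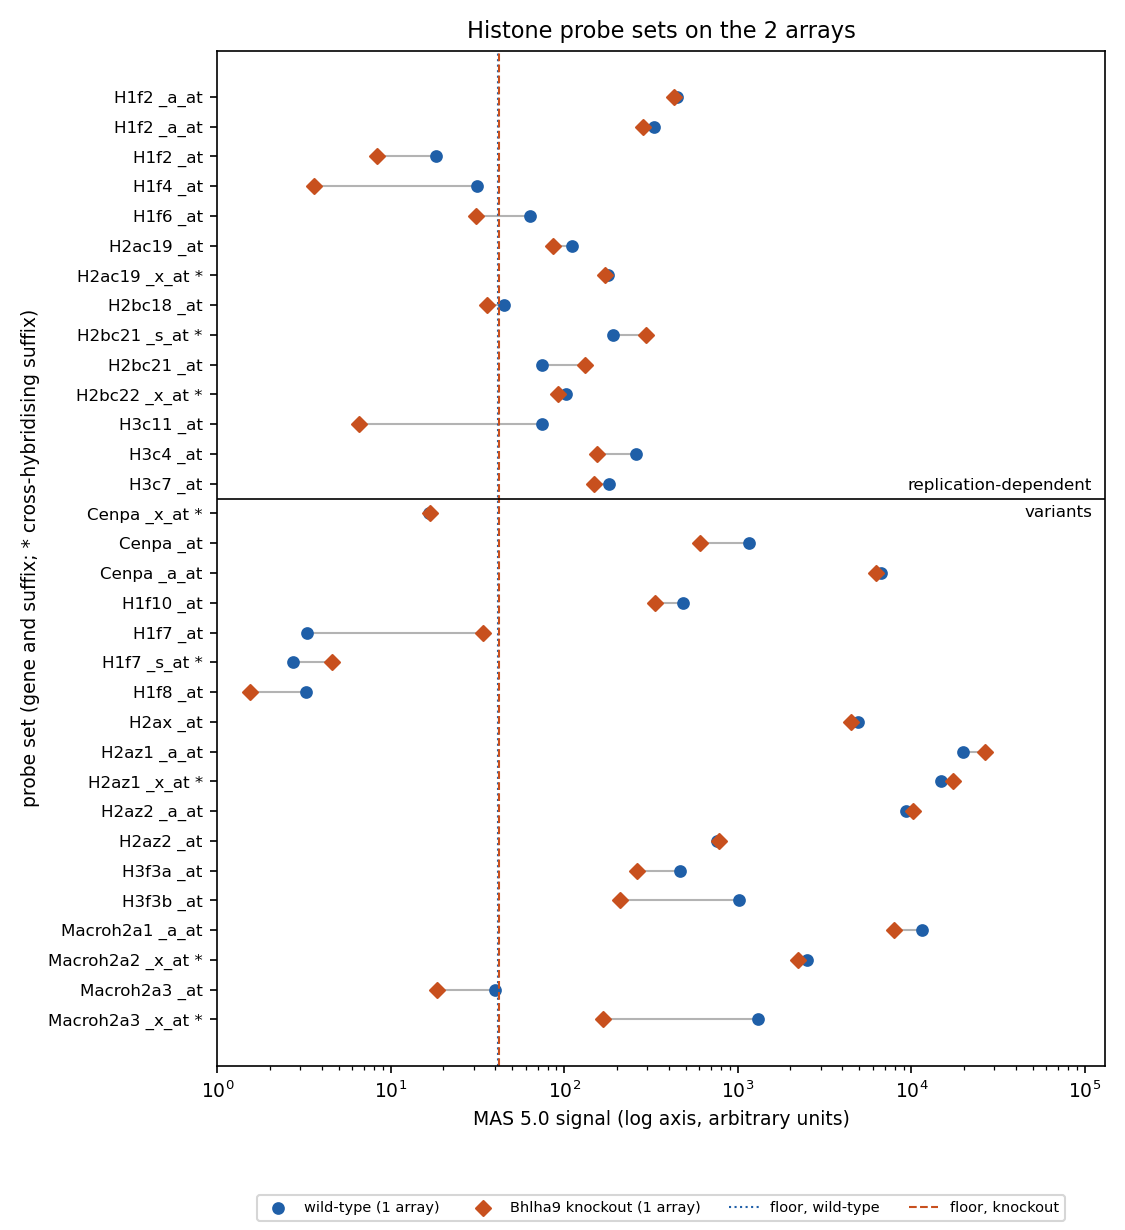
MAS 5.0 signals of the 32 histone probe sets on a log axis in arbitrary units, with a circle for the wild-type array and a diamond for the knockout array (1 array each), joined by a line. Dotted and dashed vertical lines mark the floors, and an asterisk marks a suffix prone to cross-hybridisation. The longest gaps above the floor are those of H3f3b and Macroh2a3, while most other pairs of points lie close together.

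The histone H3.3 genes gave the most divided reading. H3f3a and H3f3b encode the same H3.3 protein, the H3 form placed at active genes and regulatory elements outside replication. The H3f3b probe set read 1013 and 209, a log2 ratio of -2.28 and 4.85-fold lower on the knockout array. It ranked as the 14th lowest of 24843 ratios. The H3f3a probe set read 466 and 262, a ratio of -0.83. A set of 5 further probe sets is annotated to H3f3a, H3f3b and H3.3-like copies together. How much each gene adds to their signals is not known. Their signals ran from 13919 to 22963 on the wild-type array and from 16013 to 22377 on the knockout array, and their ratios from -0.10 to 0.44 with a median of 0.20. Of these 5 ratios 3 were positive and 2 negative. Relative to the lowest of them, the H3f3b ratio stood at -2.17 and the H3f3a ratio at -0.72. A ratio past 2-fold was thus found in 1 of the 6 probe sets annotated to that gene, and the files do not say which part of the transcript each reads.

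Start regions of the H3.3 genes are shown because both genes encode the same protein from different promoters, with those of the replication-dependent genes H3c11 and H2bc18 to compare the motifs. Sequences are from RefSeq on GRCm38.p6, 250 bases before to 50 after the annotated start, 5′ to 3′ on the gene's strand. H3f3b lies at chr11:116024455-116024754 and H3f3a at chr1:180813556-180813855, both on the minus strand. H3c11 lies at chr13:21783348-21783647 on the minus strand and H2bc18 at chr3:96269450-96269749 on the plus strand. Capitals mark the CCAAT box, the TATA sequence TATAAA and the octamer ATTTGCAT, each searched on both strands.
H3f3b: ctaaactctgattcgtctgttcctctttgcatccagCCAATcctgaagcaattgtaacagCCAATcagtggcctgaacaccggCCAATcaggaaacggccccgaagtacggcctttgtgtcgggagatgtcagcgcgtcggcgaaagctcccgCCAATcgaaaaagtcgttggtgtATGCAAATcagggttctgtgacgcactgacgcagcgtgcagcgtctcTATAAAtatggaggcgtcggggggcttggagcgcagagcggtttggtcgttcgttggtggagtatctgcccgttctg
H3f3a: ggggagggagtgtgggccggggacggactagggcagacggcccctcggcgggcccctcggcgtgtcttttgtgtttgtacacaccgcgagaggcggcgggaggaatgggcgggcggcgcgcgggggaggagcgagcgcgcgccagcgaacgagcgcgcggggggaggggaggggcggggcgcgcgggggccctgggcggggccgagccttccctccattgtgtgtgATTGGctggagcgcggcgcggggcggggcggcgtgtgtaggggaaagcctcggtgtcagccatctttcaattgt
H3c11: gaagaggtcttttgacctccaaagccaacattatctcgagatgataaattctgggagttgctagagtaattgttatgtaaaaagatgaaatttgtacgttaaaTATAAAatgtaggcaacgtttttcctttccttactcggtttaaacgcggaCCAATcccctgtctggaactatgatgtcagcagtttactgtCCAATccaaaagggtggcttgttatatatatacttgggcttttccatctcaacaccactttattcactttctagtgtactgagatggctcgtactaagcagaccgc
H2bc18: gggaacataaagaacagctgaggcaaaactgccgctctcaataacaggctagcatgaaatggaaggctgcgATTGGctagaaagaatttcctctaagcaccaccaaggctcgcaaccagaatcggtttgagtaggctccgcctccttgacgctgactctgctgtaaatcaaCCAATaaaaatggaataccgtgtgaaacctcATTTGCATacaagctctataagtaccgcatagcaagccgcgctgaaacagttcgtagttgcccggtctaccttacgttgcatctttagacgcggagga

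The H3f3b window held 4 CCAAT matches, 1 TATAAA and 1 octamer, whereas the H3f3a window held 1 CCAAT match and neither of the other motifs. RefSeq windows were found for 18 of the 22 genes, 8 of them replication-dependent and 10 variant. CCAAT was present in 8 of 8 replication-dependent and 7 of 10 variant windows, against 37.4% of all 32851 windows of that length. TATAAA was present in 4 of 8 and, as H3f3b alone, 1 of 10, against 13.6%. The octamer was present in 1 window of each class, H2bc18 and H3f3b, against 1.74%. These matches describe the sequence and mark no site shown to be bound.

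**Figure D2:**
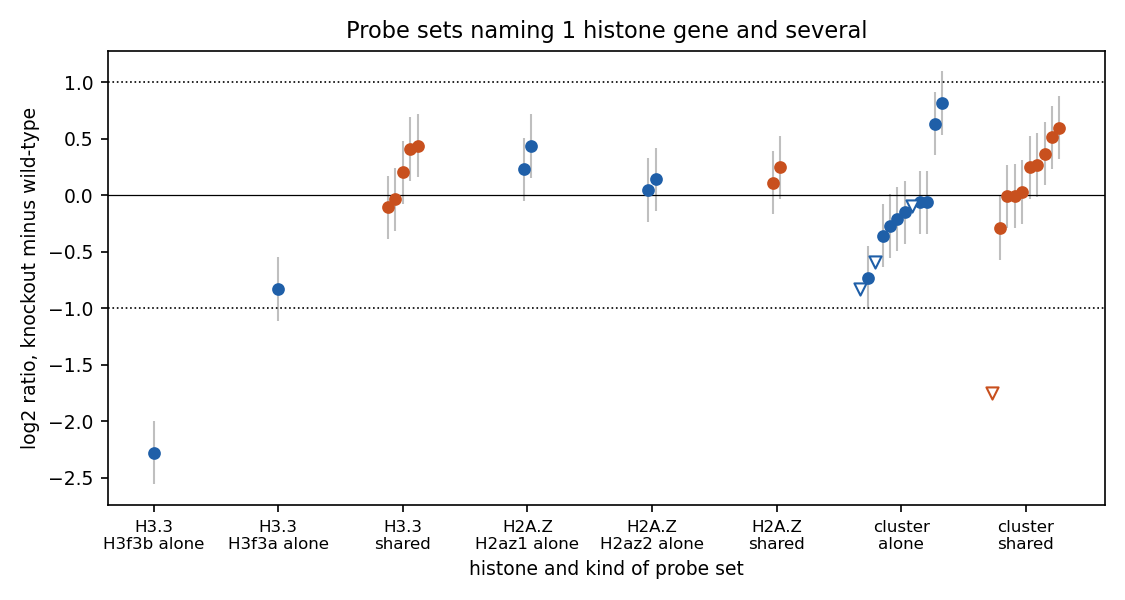
Log2 ratio, knockout minus wild-type, of probe sets annotated to 1 histone gene (blue) and to several (orange), for H3.3, H2A.Z and the replication-dependent clusters. Bars are the technical SD of 0.28, open triangles are bounds where the knockout array was at the floor, and dotted lines mark 2-fold. The H3f3b point at -2.28 lies under all 5 shared H3.3 points, while single and shared H2A.Z points overlap.

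H2A.Z, which marks nucleosomes beside start sites and at enhancers, was the variant with positive ratios throughout. For H2az1, the main H2A.Z gene, 1 probe set read 19715 and 26679, a ratio of 0.44. A further one with a cross-hybridising suffix read 14755 and 17314, a ratio of 0.23. The 2 probe sets that H2az1 shares with a pseudogene gave 0.11 and 0.25. Like the 0.23, these lay within the technical SD. The H2az2 probe sets read 9292 and 10239 (0.14) and 756 and 781 (0.05), each within the technical SD. Positive signs for all 4 single-gene probe sets held under median centring, quantile normalization and loess, although the H2az1 ratio of 0.44 came to 0.27 with loess, close to the technical SD. H2ax, the variant phosphorylated at DNA breaks, read 4894 and 4454, a ratio of -0.14.

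The macroH2A genes, whose large variant carries a macro domain and is linked to silent chromatin, all read lower. Macroh2a1 read 11427 and 7938, a ratio of -0.53. Macroh2a2, by a cross-hybridising probe set, read 2484 and 2221, a ratio of -0.16 that lay within the technical SD. Macroh2a3 was read by a cross-hybridising probe set at 1306 and 166, a ratio of -2.98, the 2nd lowest of 24843. That is 7.88-fold lower on the knockout array. Its other probe set stayed below the floor, at 39.7 and 18.5, so no second measurement of Macroh2a3 was available.

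CENP-A, the H3 variant of centromeres, read differently by probe set. One Cenpa probe set gave 6657 and 6254, a ratio of -0.09. The next gave 1158 and 608, a ratio of -0.93, and a cross-hybridising one was under the floor at 16.5 and 16.8. The difference of 0.84 between the first 2 was exceeded by 9.19% of the 5440 gene pairs, so no single figure can be given for this gene. Linker histone variants were mostly not detected. H1f10 read 484 and 332, a ratio of -0.54, whereas the germ cell variants H1f7 (3.27 and 33.7 by its brighter probe set) and H1f8 (3.23 and 1.54) were under the floor.

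The brightest single-gene probe set of a replication-dependent gene read 447 and 428, against array medians of 79.6 and 77.3. Of 10 genes, 6 were above the floor on both arrays, 3 on the wild-type array alone and 1, the linker histone gene H1f4 at 31.5 and 3.63, on neither. Over all 18193 genes, 11491 were above it on both arrays, 635 on the wild-type array alone and 962 on the knockout array alone. None of the 9 detected genes was 2-fold apart with the floor applied, although 3 of these ratios are bounds. With the floor at the 20th percentile, or with none, 3 genes were at least 2-fold lower. The share over all genes at those settings was not computed, so nothing is read from that count. Past 1.5-fold stood H3c4, H2bc21, H3c11 and H1f6, the last 2 as bounds. The 6 genes measured on both arrays had a median ratio of -0.11, with 5 negative and 1 positive, and this median changed sign under loess, to 0.0075. For the 10 variant genes measured on both arrays the median was -0.34, and for all 11491 genes -0.01. The variant median includes H3f3b and Macroh2a3, known to be low before the group was chosen. It takes the H3.3 genes by their single-gene probe sets and leaves out the 5 shared, brighter ones, whose median was 0.20. Nothing is therefore read from its distance to all genes.

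Among linker histone genes of the cluster, H1f2 read 447 and 428 (-0.06) and, by another probe set, 328 and 283 (-0.21). Its remaining probe set was under the floor, at 18.1 and 8.32. H1f6, a linker histone known from testis, read 63.0 and 31.0, at least 1.51-fold lower. The H2A gene H2ac19 read 110 and 86.2 (-0.36), and 178 and 171 (-0.06) by a cross-hybridising probe set. Both H1f2 and H2ac19 lay within the technical SD by their brighter probe set, and those 2 ratios turned slightly positive under quantile normalization and loess.

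H2B genes went both ways. H2bc21 read 191 and 297 by a cross-hybridising probe set and 74.6 and 131 by its other one, ratios of 0.63 and 0.82. These were the highest ratios of all members, and both probe sets had the same sign. H2bc22 read 102 and 91.6 by a cross-hybridising probe set, a ratio of -0.15, and H2bc18 read 44.7 and 35.7, at least 1.07-fold lower. The H2bc22 ratio lay within the technical SD, and the H2bc18 bound leaves its size unknown.

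The H3 genes of the cluster, which encode the H3 forms laid down in replication, all read lower on the knockout array. H3c4 read 257 and 155, a ratio of -0.73. H3c7 read 180 and 149, a ratio of -0.27. H3c11 read 74.2 and 6.59, at least 1.78-fold lower. A probe set shared by H3c2 and H3c10 read 140 and 34.2, at least 3.36-fold lower. Probe sets shared by 12 H3 genes differed in sign. The brighter read 969 and 1150 (0.25) and the dimmer 61.8 and 50.5 (-0.29). All of these H3 signals apart from the first of the 12-gene probe sets were below 300 on both arrays, where ratios scatter widely. The robust SD over all probe sets was 0.59 among the 20% of probe sets with the dimmest signals and 0.34 among the brightest 20%.

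Probe sets shared among cluster genes numbered 17, of which 9 were above the floor on both arrays, 1 on the wild-type array alone and 7 on neither. The ratios of the 9 ran from -0.29 to 0.60, with a median of 0.25, and the other one is the H3c2 and H3c10 bound given above. The probe set read by 10 H2A genes gave 30203 and 30026, a ratio of -0.0085, and one read by 11 H2B-group genes gave 1592 and 1584, a ratio of -0.0075. Both measured probe sets shared by H2bc4, H2bc6 and H2bc8 were higher on the knockout array, at 378 and 572 (0.60) and at 54.0 and 77.1 (0.51). The 3 measurable H4 probe sets had ratios from 0.03 to 0.37, all positive. The brightest shared H2A and H2B probe sets were thus nearly level between the arrays, and the dimmer H2B ones were not. Cluster genes are close copies of each other, and single-gene readings may share signal with them.

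**Figure D3:**
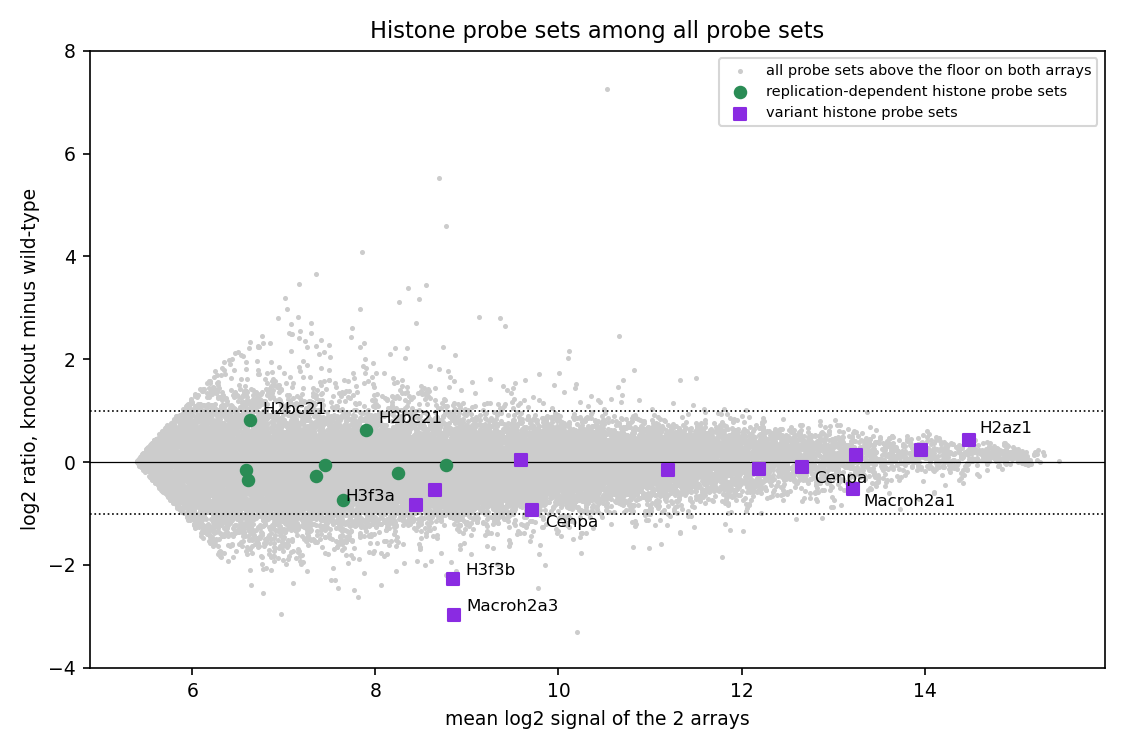
Log2 ratio, knockout minus wild-type, against the mean log2 signal of the 2 arrays for all 24843 probe sets above the floor on both (grey), with replication-dependent histone probe sets as green circles and variant probe sets as purple squares. Dotted lines mark 2-fold. H3f3b and Macroh2a3 lie at the lower edge of the cloud, and the other members lie inside 2-fold.

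For 6 member genes 2 probe sets were measured on both arrays, and the sign was the same within all 6, against 69.4% of the 5440 genes. Under quantile normalization and loess the signs differed within H1f2 and within H2ac19, whose brighter probe sets turned slightly positive. The share over all genes was not computed at those settings, so nothing is read from this agreement. Their disagreement ran from 0.09 for H2az2 to 0.84 for Cenpa. Members with a cross-hybridising suffix, 6 of which were measured on both arrays, had 2 positive and 4 negative ratios, and the 16 without had 4 positive and 12 negative.

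Genes that act on histones are given as lists, written with earlier results of these data known. Histone mRNA processing and transcription factors read close to level, with 0 of 18 genes at least 2-fold higher, 1 lower and a median of 0.06. With ratios averaged over probe sets, the median was -0.07. Among all 13088 genes that passed the floor on either array, the shares past 2-fold were 4.15% higher and 2.65% lower. The stem-loop binding protein Slbp, which processes replication-dependent histone mRNA, read 8494 and 10152 (0.26), and Npat, the activator of the histone clusters, 1144 and 1374 (0.26). A dimmer probe set of each gave -0.41 and -0.51, the opposite sign. The lower gene was Upf1, a helicase of mRNA decay that also degrades histone mRNA, at 445 and 213 (-1.06). With quantile normalization, loess or a pseudocount of 32 in place of the floor, 0 genes of this list were 2-fold lower. Next in size came the cap-complex partner Srrt (-0.94), the cleavage scaffold Sympk (-0.37, and -2.10 by a dimmer probe set) and the histone locus body factor Casp8ap2 (0.36).

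Histone chaperones and exchange factors had 0 of 31 genes at least 2-fold higher, 1 lower and a median of -0.11. The lower gene was Vps72, an H2A.Z-binding subunit of the exchange complex, at 891 and 425 (-1.07). With quantile normalization or loess, 0 genes of this list were 2-fold lower. Tonsl, which binds new histones at forks, was at -0.91, Srcap, the H2A.Z exchange ATPase, at -0.74, and Chaf1b, a subunit of the replication chaperone, at -0.68. Grouped by the variant they serve, a split made after the values were seen, 7 of 8 genes of H2A.Z exchange had negative ratios, with a median of -0.50, against 5845 of 11491 negative over all genes. Of the 7, Ruvbl1 (-0.06) and Anp32e (-0.11) lay within the technical SD. Of 6 genes of H3.3 deposition 4 were negative: Hira (-0.40), Ubn1 (-0.51), Cabin1 (-0.57) and Daxx (-0.50). The dimmest Hira probe set (0.21) and a dimmer Ubn1 one (0.27) had the opposite sign, while the remaining Hira one gave -0.45. For Atrx, the partner of Daxx, the brightest probe set gave 0.20 and 5 others gave -1.22 to 0.17, so its direction differed by probe set. The CENP-A deposition genes Mis18a and Oip5 were at 0.60 and 0.36.

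S phase genes did not shift as a group. Of 44 genes, 0 were at least 2-fold apart in either direction, the median was -0.04 and 21 ratios were positive and 23 negative. The cyclin Ccne2 (0.85) and the polymerase subunit Pola1 (0.79) were highest in size, followed by the ligase Lig1 (-0.75) and the thymidylate synthase Tyms (-0.73). A dimmer Tyms probe set was level, at 251 and 253 (0.01). Centromere and mitosis genes likewise had 0 of 34 at least 2-fold apart, with a median of 0.17 and 18 positive and 16 negative ratios. That median changed sign with plain _at probe sets alone, to -0.08, and with ratios averaged over probe sets, to -0.0066. The kinase Plk1 (-0.77), the kinetochore genes Cenpt (-0.75) and Cenpq (0.67) and the passenger protein Incenp (-0.59) were farthest from zero.

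**Figure D4:**
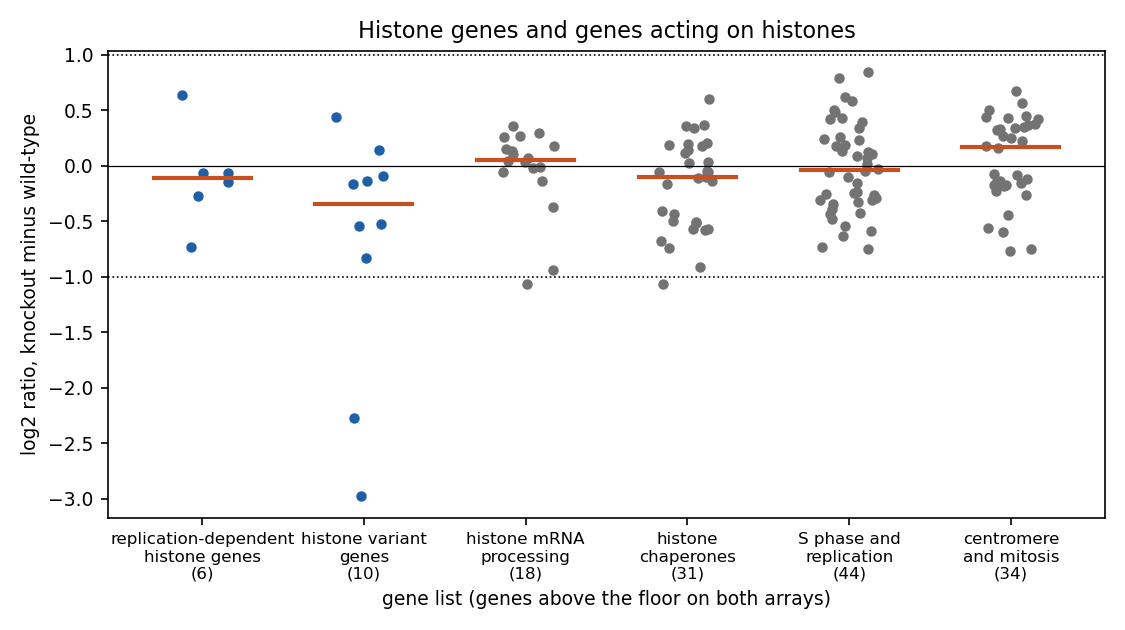
Log2 ratio, knockout minus wild-type, of genes above the floor on both arrays in 6 lists, 1 point per gene by its brightest probe set, with the number of genes in brackets and an orange line at the median. Dotted lines mark 2-fold. The 2 lowest points, at -2.98 and -2.28, are variant genes, and the medians of the other 4 lists lie between -0.11 and 0.17.

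Markers of other tissues moved with the genotype on these arrays, and their part in the histone readings was not tested. Over 14 embryonic liver markers the summed signal went from 431 to 36279, with 11 genes above the floor on the knockout array alone and 13 at least 2-fold higher. The sums over 14 neural and 9 muscle markers went from 2032 to 7357 and from 2344 to 4060, and 12 and 6 of these markers were at least 2-fold higher. The sum over 8 erythroid markers, nearly all of it globin, went from 86082 to 92058, and 2 of them, Klf1 (1.02) and Epb42 (1.39), were at least 2-fold higher. The sum over 14 limb mesenchyme markers went from 39846 to 22032, and 6 of them were at least 2-fold lower. Of 8 germ cell and testis markers 7 were under the floor on both arrays. The other, Stag3, read 145 and 33.5, at least 3.48-fold lower. No marker of any of these lists read exactly 0. In such bulk tissue, fewer cells of a type and less RNA per cell cannot be told apart.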

How the data were processed

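Total RNA (200 ng) was labelled with a 3′ IVT kit and hybridised to Affymetrix Mouse Genome 430 2.0 arrays, per the labels' protocols. The authors summarised each array with MAS 5.0, per the series' design text, and deposited them as linear intensities. Their 2% trimmed mean was 500.0 on both arrays, each array being scaled on its own. No detection calls were used. The 64 control probe sets were left out.

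Symbols came from the platform annotation. All 32 members matched RefSeq genes (GRCm38.p6) by Entrez identifier, and of the other probe sets 932 had several symbols and 9160 none. No gene coordinates are printed other than those of the RefSeq promoter windows. Suffixes _s_at and _x_at were counted as prone to cross-hybridisation.

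The floor at the 40th percentile, the 2-fold threshold and the brightest probe set per gene (highest mean signal) followed an earlier treatment of these data. The members and lists were chosen with earlier results of these data known. The rule for named genes took every detected variant probe set, the 8 brightest replication-dependent ones, any that were 2-fold apart or discordant in sign, and up to 4 members of each other list with the largest ratios measured on both arrays. The remaining members are given so that all are accounted for. Slbp, Npat, Hira, Ubn1, Cabin1, Daxx, Atrx, Ruvbl1, Anp32e, Klf1, Epb42, Stag3, Mis18a and Oip5 were added, and the chaperones were split by variant, after their values were seen. Listed genes that were not matched to a single-symbol probe set were not analysed here. Each group being 1 array, no p-value was computed, and precision is limited by the number of arrays. The steps were tested on simulated data. Alternatives covered scaling, floor, pseudocount, probe set choice and threshold. Values were computed with pandas 2.3.3 and numpy 2.4.6 under Python 3.11.15, loess with statsmodels 0.14.6, and plots with matplotlib 3.10.9.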

Additional observations from a re-analysis of the deposited data

How the results depend on the processing

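No paired analysis was possible because each genotype is 1 array. Of 376 values recomputed under 11 alternatives, 340 stayed within 1.5 times a count or within 0.28 of a log2 value, 36 moved and 0 called values reversed. Reversal was asked only of log2 values at or past 2-fold, which were those of H3f3b and Macroh2a3, so little could reverse. Among 169 recomputed member ratios, 165 kept their sign. Moving or dropping the floor, or adding a pseudocount, could hardly change a sign. Only median centring, quantile normalization and loess could, so little is read from this count. The changes were those of the brighter H1f2 and H2ac19 probe sets under quantile normalization and loess. H3f3b stayed between -2.28 and -2.12 and Macroh2a3 between -2.98 and -2.76 over 7 alternatives each. Both lie well above the floor, so moving or dropping the floor could not change their ratios. The floor decided most counts. With it at the 20th percentile, 1 member probe set was at least 2-fold higher and 7 lower, 3 replication-dependent genes were lower and 1 variant gene was higher. With no floor or filter the same counts were 1, 8, 3 and 1, and with a pseudocount of 32 in its place 1 replication-dependent gene was lower, H3c11 at -1.46. Plain _at probe sets alone left 1 lower member probe set, 1 lower variant gene, a variant median of -0.68 and 1 higher S phase gene. At 1.5-fold, 2 member probe sets were higher and 7 lower. The single lower gene of the processing list was lost (0) under quantile normalization, loess and the pseudocount, and 2 were lower with ratios averaged over probe sets. That of the chaperone list was lost (0) under quantile normalization and loess. Over all probe sets, against 941 higher and 1317 lower, the counts were 4485 and 4510 at the 20th percentile, 244 and 444 at the 60th, 6501 and 6548 without floor or filter, 2992 and 4556 at 1.5-fold and 251 and 207 at 3-fold. Without floor or filter, all 32 members and all 45037 probe sets were counted. For the other floors the number passing is not given, and no share over all genes was computed under any alternative. These counts therefore show only how the calls move with the setting. Signals near the floor limit what can be said of H3c11, H1f6 and H2bc18, whose knockout signals were under it. The cause of these shifts, beyond the settings themselves, was not tested.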

Other observations

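Histone genes whose symbols fall outside the members' naming gave further readings. A probe set of the H2B gene H2bu2 and its neighbouring pseudogene went from 70.0 in the wild-type to 331 in the knockout (log2 ratio 2.24). The H2A gene H2aw had ratios of 0.68 and 0.70 by its 2 single-gene probe sets, and 0.21 by one it shares with Trim17. H2aj, a polyadenylated H2A gene, read 1054 and 1023 (-0.04), 148 and 93.9 (-0.65), and 46.5 and 80.1 (0.79) by its 3 probe sets, so its direction differed by probe set. Germ cell H2A and H2B genes such as H2al2a, H2ap and H2bl1 were under the floor on both arrays.

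By order in the RefSeq table, H3f3b lies next to Unk, which read 564 and 323, a ratio of -0.81. The neighbour of Macroh2a3 is the non-coding gene Pvt1, which read 66.6 and 155, a ratio of 1.22, opposite in sign to Macroh2a3. Across the 5440 genes with 2 measured probe sets, the ratio of the brightest exceeded that of the next in 55.9%, with a median difference of 0.06. For H3f3b, the 5 brighter probe sets shared with H3f3a lay above the single-gene one, and for Cenpa the brighter one lay above the next.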
